A study of Mus musculus with 4 samples.

Results

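The genes described here encode the enzymes that make serine, move 1-carbon units on folate and build purine and pyrimidine nucleotides, together with the purine salvage and nucleoside diphosphate kinases that work beside them. The members were chosen by name, as 30 gene symbols, with earlier results of these data known. All 30 were found among the 54752 genes counted and were tested. RNA was sequenced from polarized CD4+ T cells of WT mice and of Mek1/2-tKO mice, which carry Cd4-Cre with floxed alleles of both Map2k1 (fl/fl) and Map2k2 (fl/fl) on a C57BL/6 background. The genotype is meant to remove both MEK kinases, which relay signals from the T-cell receptor to ERK. It is meant to do so in T cells alone, because Cd4 sequences drive the Cre recombinase. Naïve CD4+ T cells from the spleen were stimulated in both genotypes with anti-CD3 and anti-CD28, and they received IL-6 together with blocking antibodies against TGF-β, IL-4, IFN-γ and IL-2, a mixture that favours T follicular helper (Tfh) cells. The viable cells were sorted again on day 3 and gave 2 libraries per genotype. The sources used here give neither the age of these mice nor whether the 2 libraries of a genotype came from separate animals, so the p-values measure only the spread between these libraries, which may be technical. Cre driven by Cd4 acts from the thymus onwards, so the deletion can take place well before culture.

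Resting T cells need few new nucleotides, whereas activated T cells that divide need many. They make serine from a glycolytic intermediate or import it, and serine hydroxymethyltransferase passes a carbon of serine to tetrahydrofolate. Mitochondria turn that carbon into formate, which the cytosol loads on folate again for the purine ring and for thymidylate. The purine ring is built step by step on phosphoribosyl pyrophosphate (PRPP), and the pyrimidine ring is built first and joined to PRPP later.

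Library totals lay between 16330802 and 18931090 counts, and mitochondrial genes took 1.62 and 1.56% of them in WT and 2.24 and 1.99% in Mek1/2-tKO, a difference whose part in the results was not tested. Levels are given in CPM, the counts of a gene per 1000000 counts of its library, scaled with TMM factors that equalize the bulk of the genes between libraries. Where no read was counted, a level of 0.159 to 0.184 CPM (3 counts) would still be possible from counting error alone. Map2k1, one of the targeted genes, was at 182 and 187 CPM in WT and 98.0 and 105 CPM in Mek1/2-tKO (log2 fold change -0.86, SE 0.08, adjusted p = 1.29e-06). Map2k2, the other, was at 155 and 165 CPM in WT and 172 and 182 CPM in Mek1/2-tKO (log2 fold change 0.15, SE 0.08, adjusted p = 0.126). Map2k2 was thus not lower. A count over a whole gene does not show whether the floxed exons are missing, so these values cannot establish the deletion of either gene. The paper's own check included phosphorylated MEK1/2 and ERK1/2, measured by flow cytometry in naïve CD4+ T cells of the spleen. A gene is called here when its adjusted p in edgeR's quasi-likelihood test is under 0.05 and its fold change is at least 1.5. The words fell and rose are used for an adjusted p under 0.05 at any fold, and all fold changes are of Mek1/2-tKO over WT.

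The libraries differed in more than the targeted genes. Cd4 itself was at 297 and 289 CPM in WT and 18.8 and 25.1 CPM in Mek1/2-tKO. Of 12 markers of αβ CD4 T cells, 7 were called lower and none higher, and their summed level went from 3319 and 3355 CPM in WT to 2028 and 1895 CPM in Mek1/2-tKO. Their most abundant genes were Trbc2, a constant segment of the T-cell receptor β chain, at 393 and 370.4 CPM in WT and 397 and 351 CPM in Mek1/2-tKO, and Lat, an adaptor of that receptor, at 428 and 438 CPM in WT and 311 and 280.0 CPM in Mek1/2-tKO. Markers of other lymphocytes were higher in both Mek1/2-tKO libraries. All 12 B-lineage markers were called higher, summed to 1313 and 1297 CPM in WT and 6899 and 6868 CPM in Mek1/2-tKO, led by Ighm (3068 and 3095 CPM in Mek1/2-tKO against 696 and 670.4 CPM in WT) and Cd79b (1274 and 1158 CPM in Mek1/2-tKO against 93.4 and 89.7 CPM in WT), both parts of the B-cell receptor. All 9 NK-cell markers were called higher as well, from 124 and 129 CPM in all to 865 and 783 CPM, with Nkg7 and Prf1, genes of cytotoxic granules, at 436 and 405 CPM and at 197 and 178 CPM in Mek1/2-tKO. The 5 γδ T-cell markers were called higher, from 6.98 and 4.36 CPM in all to 184 and 165 CPM, with Trdc at 57.9 and 53.6 CPM and Tcrg-C2 at 59.2 and 46.0 CPM in Mek1/2-tKO. Both CD8 genes, Cd8a and Cd8b1, were called higher, from 67.4 and 59.3 CPM in all to 238 and 214 CPM. Of 10 myeloid genes 7 were tested and all 7 were called higher, but their sum reached only 29.0 and 23.2 CPM in Mek1/2-tKO, with Lyz2 at 10.2 and 6.23 CPM and Cd68 at 4.13 and 5.49 CPM, and Adgre1 and S100a8 had no count in either WT library. No marker was at 0 in all 4 libraries. The part of these marker differences in the results below was not tested, and in bulk libraries fewer cells of a type and less RNA per cell cannot be told apart.

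Most of the synthesis genes were lower in the Mek1/2-tKO libraries, and none was called higher. Of the 30 members, 9 were called lower, which is 30% of them, while 16.4% of the 14330 genes tested were called lower. The 9 were Psat1, Psph, Shmt2, Mthfd1l, Aldh1l2, Pfas, Atic, Impdh1 and Cad. No member was called higher, against 19.3% of all genes tested. At an adjusted p under 0.05 without regard to fold, 20 members fell, or 66.7%, against 27.2% of all genes, and 3 rose, or 10%, against 27.8%. Both Mek1/2-tKO libraries lay below both WT libraries in 26 members, or 86.7%, against 38.8% of all genes, and above both in 3 members, against 39.5%. Only Hprt had libraries that overlapped between genotypes. The median log2 fold change was -0.37 over the members and 0.02 over all genes tested. Counting error is small for these genes, since 28 of the 30 had at least 100 counts in every library, and Aldh1l2 and Nme2 were the exceptions.

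**Figure D1:**
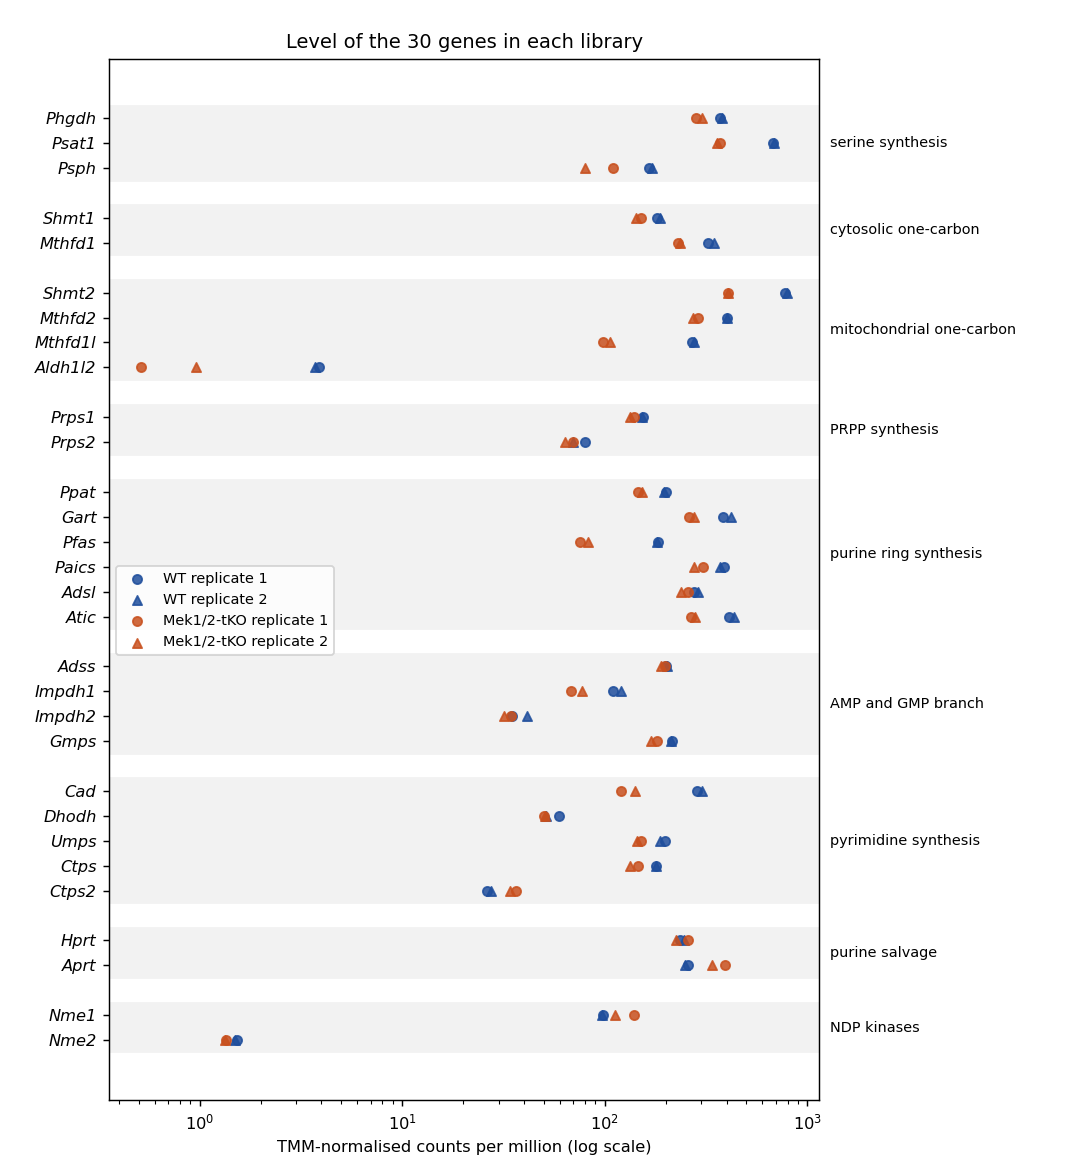
Level of each of the 30 genes in the 4 libraries, in TMM-normalised CPM on a log scale, with 1 point per library and the genes grouped by role. The orange Mek1/2-tKO points lie left of the blue WT points for most genes, widest apart for Aldh1l2, Mthfd1l, Pfas and Cad, and right of them for Ctps2, Aprt and Nme1.

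All 3 enzymes of serine synthesis fell (positions are given on GRCm38). Phgdh, which takes 3-phosphoglycerate out of glycolysis and starts the pathway, was at 369.7 and 380.3 CPM in WT and 282 and 301 CPM in Mek1/2-tKO (log2 fold change -0.36, SE 0.07, adjusted p = 0.000931), short of the fold needed for a call. Psat1, the aminotransferase of the next step (chr19:15904678-15947337), was at 681 and 682 CPM in WT and 370.1 and 358 CPM in Mek1/2-tKO (log2 fold change -0.90, SE 0.07, adjusted p = 2.39e-07). The gap between genotypes was many times the gap between libraries of 1 genotype. Psph, the phosphatase that releases serine (chr5:129765558-129787449), was at 166 and 172 CPM in WT and 110.1 and 79.7 CPM in Mek1/2-tKO (log2 fold change -0.84, SE 0.12, adjusted p = 5.35e-05), and its Mek1/2-tKO libraries stood further apart than those of the other serine enzymes. Of the exon bases of Psph, 10.4% also belong to Cct6a on the other strand, and the strand setting of the counting is not given in the sources used here. Phgdh has 2 processed pseudogenes of at least 97% identity, and with their counts added its log2 fold change was -0.42.

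The enzymes that carry 1-carbon units fell in both compartments, and 3 of the 4 mitochondrial genes were called lower while neither of the cytosolic genes was. In the cytosol, Shmt1, which splits serine to glycine and a folate-bound carbon, was at 182 and 188 CPM in WT and 151 and 143 CPM in Mek1/2-tKO (log2 fold change -0.33, SE 0.08, adjusted p = 0.00255). Mthfd1, the cytosolic enzyme that loads formate on folate and interconverts the products, was at 324 and 347 CPM in WT and 229.7 and 237 CPM in Mek1/2-tKO (log2 fold change -0.52, SE 0.07, adjusted p = 4.85e-05). Shmt1 shares 4.74% of its exon bases with Smcr8 on the other strand. Neither cytosolic gene reached the fold of 1.5, though Mthfd1 did when library size alone set the scale, with a log2 fold change of -0.61. In mitochondria, Shmt2, the counterpart of Shmt1 (chr10:127517123-127522444), was at 773 and 793 CPM in WT and 408 and 406 CPM in Mek1/2-tKO (log2 fold change -0.94, SE 0.07, adjusted p = 1.63e-07). Its knockout level was 52.1% of the WT level. Mthfd2, which oxidizes the carbon in the next mitochondrial steps, was at 403 and 403 CPM in WT and 288 and 272 CPM in Mek1/2-tKO (log2 fold change -0.52, SE 0.07, adjusted p = 4.05e-05), and it too was called only with library size alone, at -0.61. Mthfd1l, which releases formate from folate for export to the cytosol (chr10:3973118-4167081), was at 270.2 and 276 CPM in WT and 97.7 and 107 CPM in Mek1/2-tKO (log2 fold change -1.42, SE 0.08, adjusted p = 7.43e-09). That left 37.4% of the WT level, the lowest share among the members with at least 100 counts in every library.

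Aldh1l2, a mitochondrial dehydrogenase that oxidizes formyl-folate to CO2 and yields NADPH (chr10:83487450-83534140), had the largest fold change and the fewest reads of the called members. Its counts were 76 and 72 in WT and 8 and 18 in Mek1/2-tKO, or 3.90 and 3.73 CPM in WT and 0.517 and 0.959 CPM in Mek1/2-tKO (log2 fold change -2.34, SE 0.45, adjusted p = 0.000556). It shares 14.1% of its exon bases with D10Wsu102e on the other strand. The other 8 called members had at least 1053 counts in every library.

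The mitochondrial and cytosolic enzymes were also set against each other within each library. The ratio of Shmt2 to Shmt1, per kilobase of exon, was 5.31 and 5.27 in WT and 3.38 and 3.56 in Mek1/2-tKO, a log2 difference of -0.61. Mthfd1l to Mthfd1 went from 0.836 and 0.796 to 0.426 and 0.451, a log2 difference of -0.90. In both pairs the mitochondrial gene took a smaller part of the pair in each knockout library than in either WT library. Mthfd2 to Mthfd1 was 1.58 and 1.48 in WT and 1.60 and 1.46 in Mek1/2-tKO, so that the libraries overlapped. With 2 libraries against 2 a two-sided exact permutation test cannot give a p under 0.333, which was the value for the first and second of these pairs (adjusted p = 0.467 over 7 pairs of members). The exact permutation p of the third was 1.

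**Figure D2:**
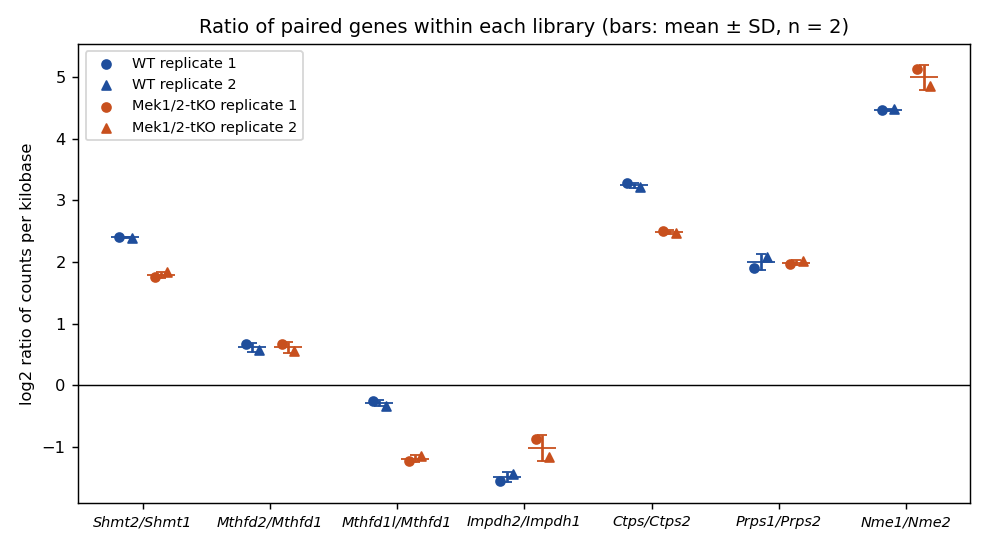
Log2 ratio of the levels per kilobase of 7 pairs of members in each library, with the mean and SD of the 2 libraries per genotype. Shmt2/Shmt1, Mthfd1l/Mthfd1 and Ctps/Ctps2 are lower in both Mek1/2-tKO libraries, Mthfd2/Mthfd1 and Prps1/Prps2 overlap, and Impdh2/Impdh1 and Nme1/Nme2 are drawn although reads of Impdh2 and Nme2 can be shared with near-identical copies.

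The synthetases of PRPP, the sugar phosphate to which both kinds of base are joined, did not pass the test under TMM scaling. Prps1 was at 154 and 153 CPM in WT and 139 and 133 CPM in Mek1/2-tKO (log2 fold change -0.18, SE 0.08, adjusted p = 0.0736). Prps2 was at 79.8 and 70.2 CPM in WT and 69.4 and 63.6 CPM in Mek1/2-tKO (log2 fold change -0.17, SE 0.10, adjusted p = 0.169). Both had all knockout libraries below all WT libraries, but only just in Prps2, where WT replicate 2 and Mek1/2-tKO replicate 1 were close together. With library size alone both passed (Prps1 -0.26, Prps2 -0.26, adjusted p = 0.0133 and 0.0459), and Prps1 also passed with trends on GC content and gene length taken out (-0.37). The ratio of Prps1 to Prps2 overlapped between genotypes (log2 difference -0.01, p = 1 by the exact permutation test).

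All 6 genes of the steps from PRPP to inosine monophosphate (IMP) fell, 2 of them far enough to be called. Ppat, the amidotransferase that commits PRPP to purines, was at 200.0 and 196 CPM in WT and 146 and 152 CPM in Mek1/2-tKO (log2 fold change -0.41, SE 0.08, adjusted p = 0.000483). Gart, which carries 3 activities of the pathway on 1 protein and takes a formyl group from folate, was at 383 and 422 CPM in WT and 262 and 276 CPM in Mek1/2-tKO (log2 fold change -0.58, SE 0.08, adjusted p = 2.71e-05). Gart lay at the edge of the fold threshold of 0.58 on the log2 scale, and it was called with DESeq2, with library size alone, with no filter on low counts, without WT replicate 1 and without Mek1/2-tKO replicate 2. Gart shares 19.7% of its exon bases with Gm15964, a gene on the other strand with few reads. Pfas, the amidotransferase that takes over from Gart (chr11:68985697-69008460), was at 183 and 181 CPM in WT and 76.0 and 82.4 CPM in Mek1/2-tKO (log2 fold change -1.20, SE 0.08, adjusted p = 6.92e-08). It kept 43.6% of its WT level, the least of the ring-building genes.

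Paics, Adsl and Atic catalyse the later steps. Paics, a bifunctional enzyme, was at 387 and 369 CPM in WT and 306 and 277 CPM in Mek1/2-tKO (log2 fold change -0.38, SE 0.08, adjusted p = 0.000984). Adsl, a lyase used here and again on the way to AMP, was at 275 and 289.8 CPM in WT and 257 and 239 CPM in Mek1/2-tKO (log2 fold change -0.19, SE 0.08, adjusted p = 0.0478). Atic, which adds the last carbon from formyl-folate and closes the ring to IMP (chr1:71557150-71579631), was at 409.6 and 435 CPM in WT and 266 and 280.5 CPM in Mek1/2-tKO (log2 fold change -0.63, SE 0.07, adjusted p = 9.68e-06). The libraries of the genotypes were well apart in Atic and close together in Adsl. Atic and Adsl depended on how gene length and GC content were treated. With the trends of each library on exon length and GC content taken out, an alternative chosen after the data were seen, Atic was at a log2 fold change of -0.31 and no longer called, and Adsl was at 0.06. Adsl also missed the threshold with DESeq2 (adjusted p = 0.0556). Ppat and Paics lie head to head on chromosome 5 and share exon bases on opposite strands, 6.15% of those of Ppat and 8.67% of those of Paics.

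Of the genes that lead from IMP to AMP and GMP, 2 of 4 fell. Impdh1, one of the 2 dehydrogenases that commit IMP to guanine nucleotides (chr6:29200434-29216364), was at 109.5 and 120.1 CPM in WT and 68.0 and 77.0 CPM in Mek1/2-tKO (log2 fold change -0.66, SE 0.10, adjusted p = 6.30e-05). It was called lower, but without Mek1/2-tKO replicate 1 its log2 fold change was -0.58 and the call was lost. Gmps, which makes GMP, was at 214 and 212 CPM in WT and 182 and 169.7 CPM in Mek1/2-tKO (log2 fold change -0.28, SE 0.08, adjusted p = 0.00673), and with the trends on GC content and length taken out at 0.06. Adss, the synthetase on the adenine side, was at 202 and 202 CPM in WT and 199 and 189 CPM in Mek1/2-tKO (log2 fold change -0.06, SE 0.07, adjusted p = 0.535), and at 0.13 with those trends taken out. Impdh2, the dehydrogenase paralog, was at 35 and 41.5 CPM in WT and 34.7 and 31.9 CPM in Mek1/2-tKO (log2 fold change -0.20, SE 0.12, adjusted p = 0.187). With the trends on GC content and length taken out Impdh2 fell, at -0.28 (adjusted p = 0.0484 in edgeR's test). Its value is uncertain, since a processed pseudogene with 1545 bases at 99.7% identity was counted at 602 and 608 CPM in WT and 500.1 and 481 CPM in Mek1/2-tKO, and with those counts added Impdh2 was at -0.30 (adjusted p = 0.00335).

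In pyrimidine synthesis 3 of 5 genes fell and 1 rose. Cad, which joins the first 3 activities of the pathway on 1 large protein (chr5:31054780-31078479), was at 286 and 304 CPM in WT and 120.4 and 141 CPM in Mek1/2-tKO (log2 fold change -1.17, SE 0.09, adjusted p = 1.20e-07). It kept 44.3% of its WT level, and the 2 knockout libraries lay further apart than the 2 WT libraries. Dhodh, the mitochondrial dehydrogenase that makes orotate, was at 59.8 and 51.6 CPM in WT and 50 and 50.5 CPM in Mek1/2-tKO (log2 fold change -0.15, SE 0.11, adjusted p = 0.262), and its direction turned to 0.09 with the GC and length trends taken out. Umps, which converts orotate to UMP, was at 198 and 188 CPM in WT and 151 and 144 CPM in Mek1/2-tKO (log2 fold change -0.39, SE 0.08, adjusted p = 0.000898), and it shares 6.11% of its exon bases with Gm15829 on the other strand.

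Of the CTP synthetases, which make the last of the pyrimidine nucleotides here, Ctps fell and Ctps2 rose. Ctps, the more abundant, was at 179.9 and 179 CPM in WT and 146 and 134 CPM in Mek1/2-tKO (log2 fold change -0.36, SE 0.08, adjusted p = 0.00186). Ctps2 was at 26.4 and 27.3 CPM in WT and 36.6 and 34.3 CPM in Mek1/2-tKO (log2 fold change 0.40, SE 0.12, adjusted p = 0.0117). Their libraries did not overlap between genotypes in either gene, and the ratio of Ctps to Ctps2 per kilobase was 9.70 and 9.32 in WT and 5.68 and 5.54 in Mek1/2-tKO (log2 difference -0.76, p = 0.333 by the exact permutation test, adjusted p = 0.467). With the GC and length trends taken out Ctps2 was at 0.60, past the fold threshold, and was then the one member called higher.

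Of the salvage enzymes and the diphosphate kinases, Aprt and Nme1 rose, and Hprt and Nme2 did not pass the test. Hprt, which rebuilds IMP and GMP from free bases, was at 235 and 247 CPM in WT and 257 and 224 CPM in Mek1/2-tKO (log2 fold change -0.0023, SE 0.08, adjusted p = 0.983). The Mek1/2-tKO libraries of Hprt lay on either side of the WT libraries, and its direction changed when 1 library was left out. With GC and length trends taken out Hprt fell, at -0.28 (adjusted p = 0.00136). Aprt, which rebuilds AMP from adenine, was at 259 and 248 CPM in WT and 394 and 339 CPM in Mek1/2-tKO (log2 fold change 0.53, SE 0.08, adjusted p = 0.000117). Both knockout libraries of Aprt were above both WT libraries. Without Mek1/2-tKO replicate 2 its log2 fold change was 0.63, past the fold for a call, and without Mek1/2-tKO replicate 1 it was 0.42. With GC and length trends taken out Aprt was at 0.24 (adjusted p = 0.00661). Nme1, a kinase that charges nucleoside diphosphates to triphosphates, was at 98.5 and 97.5 CPM in WT and 139.9 and 112 CPM in Mek1/2-tKO (log2 fold change 0.36, SE 0.10, adjusted p = 0.00956), with the 2 knockout libraries about as far apart as the genotype means. Nme2, its neighbour, had 21 to 30 counts per library and a log2 fold change of -0.18 (SE 0.48, adjusted p = 0.777). That value is uncertain too: 48.9% of its exon bases are shared with the readthrough gene Gm20390, which had 0 counts, and with 3 near-identical pseudogenes added it was at 0.45. Nme1 shares 12.5% with the same readthrough gene. The ratios of Nme1 to Nme2 and of Impdh2 to Impdh1 were higher in both knockout libraries, by 0.52 and 0.47 on the log2 scale (exact permutation p = 0.333 for each), and are as uncertain as the Nme2 and Impdh2 counts.

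**Figure D3:**
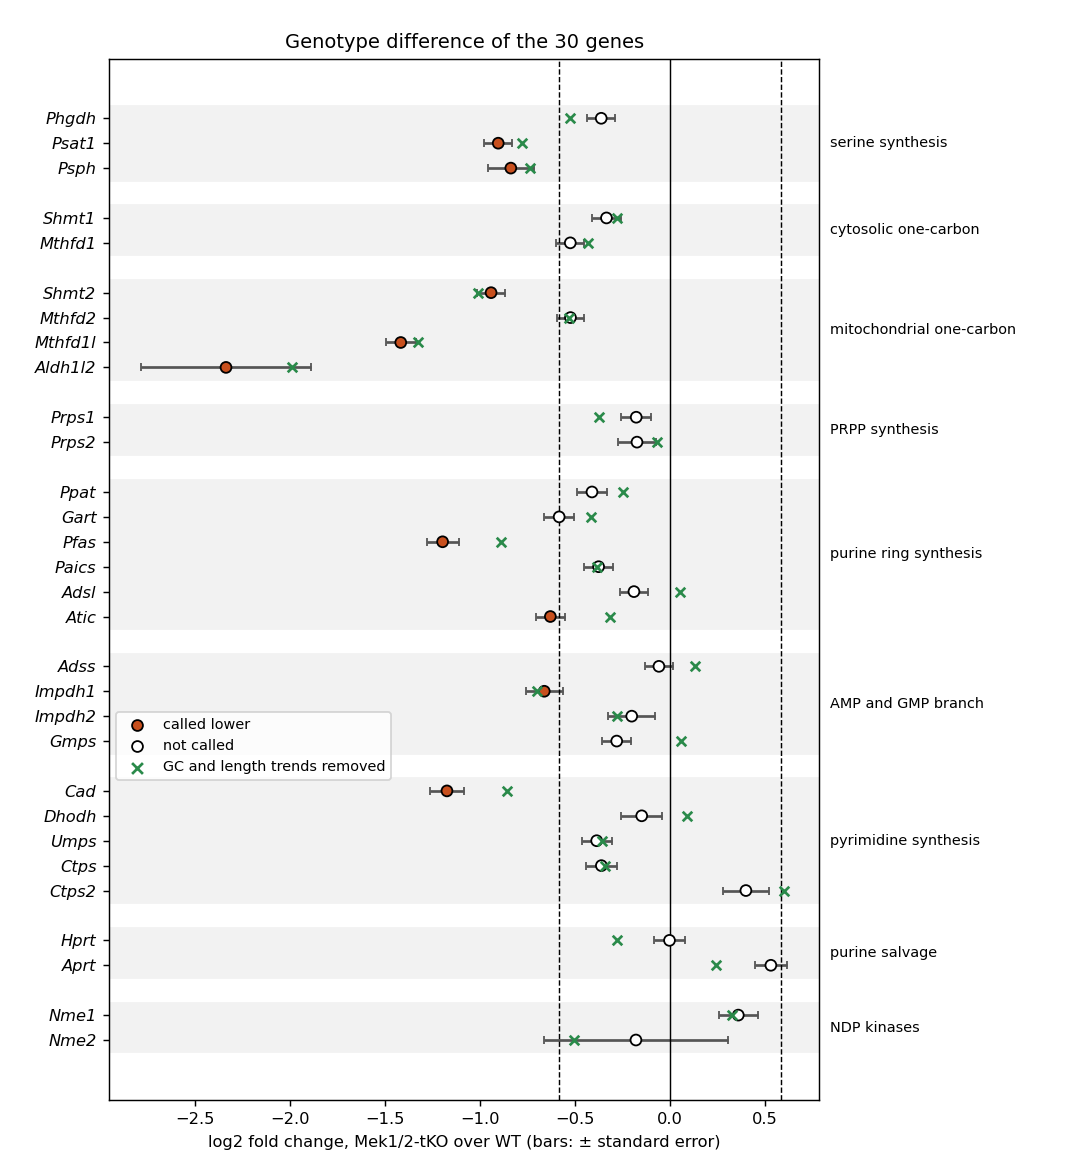
Log2 fold change of each member, Mek1/2-tKO over WT, with its standard error (circles, filled where called) and the value after GC and length trends were taken out (crosses). The dashed lines mark a fold change of 1.5, and 27 of the 30 circles lie below 0, with the 9 filled ones beyond the left line.

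Summed by role per kilobase of exon, the mitochondrial 1-carbon genes kept the least of their WT level, 54.6%, and the serine enzymes 64.2%. The purine ring genes kept 72.3%, the pyrimidine genes 72.5%, the cytosolic 1-carbon genes 73.3%, the AMP and GMP branch 82.4% and the PRPP synthetases 88.5%. Purine salvage stood at 120% and the diphosphate kinases at 127% of WT, with pseudogene counts left out. Only Aprt rose in the first group and only Nme1 in the second. The median log2 fold changes of these groups were 0.26 and 0.09. With GC and length trends taken out they were -0.02 and -0.09. All 30 together went from 2006 and 2036 CPM per kilobase in WT to 1612 and 1523 in Mek1/2-tKO, or 77.6%. These sums are descriptions, and each is carried by its most abundant genes.

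Of 3 regulators read beside these genes, Myc fell, and Atf4 and Mycn did not pass the test. Myc, a transcription factor that drives growth and nucleotide synthesis after T-cell activation, was at 264 and 289 CPM in WT and 112 and 130.2 CPM in Mek1/2-tKO (log2 fold change -1.19, SE 0.09, adjusted p = 1.31e-07). Atf4, which turns on serine and 1-carbon genes when amino acids are short, was at 681 and 678 CPM in WT and 648 and 575 CPM in Mek1/2-tKO (log2 fold change -0.15, SE 0.08, adjusted p = 0.117), and its protein is set largely by translation, which counts of RNA do not show. Mycn, a relative of Myc, was scarcely counted, at 0.513 and 0.830 CPM in WT and 1.29 and 1.70 CPM in Mek1/2-tKO (log2 fold change 1.16, SE 0.58, adjusted p = 0.106). The palindrome CACGTG, to which Myc and related factors bind, was searched on both strands in the 300 bases from 250 before to 50 after the start site of each gene (RefSeq, GRCm38.p6). Of the 30 members, 27 had such a window, and 4 of the 27 (14.8%) held the palindrome in at least 1 window, against 8.09% of the 27025 genes with a window. The matches are printed because they show where in these genes the palindrome sits, each in 26 bases read 5′ to 3′ along the gene, with the palindrome in capitals.
Atic (chr1:71557139-71557164, plus strand): acctcggggtCACGTGgggtcgacac
Impdh2 (chr9:108560316-108560341, plus strand): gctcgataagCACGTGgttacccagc
Paics (chr5:76951089-76951114, plus strand): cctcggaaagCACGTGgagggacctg
Nme1, first window (chr11:93968039-93968064, minus strand): cttgatacgcCACGTGggctcgcctt
Nme1, second window (chr11:93968275-93968300, minus strand): tgcggggaacCACGTGaggccgggga
Counted from the RefSeq starts, the first base of the palindrome lay 7 bases before the start of Atic and 110 before that of Impdh2. It lay 203 bases before the start of Paics, and 29 and 18 before the starts of Nme1. The gene positions given above are those deposited with the counts, in which Atic, Impdh2 and Nme1 start further upstream. By those positions the palindrome spans the start of Atic and lies within Impdh2 and Nme1. Atic and Paics fell, Nme1 rose and Impdh2 did not pass the test. With its pseudogene counts added, Impdh2 fell (log2 fold change -0.30, adjusted p = 0.00335 in edgeR's test), and it also fell with GC and length trends taken out (-0.28). The part of the palindrome in these directions was not tested.

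The 250 bases before the start are printed for Atic, the called member with the palindrome nearest its start, and for Cad, a called member without it in this window.
Atic (chr1:71556906-71557155, plus strand): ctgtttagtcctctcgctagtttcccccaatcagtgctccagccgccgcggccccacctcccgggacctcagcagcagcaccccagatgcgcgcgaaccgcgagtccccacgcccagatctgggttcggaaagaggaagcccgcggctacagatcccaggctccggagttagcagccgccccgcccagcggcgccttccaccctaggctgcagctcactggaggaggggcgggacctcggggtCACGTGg
Cad (chr5:31054530-31054779, plus strand): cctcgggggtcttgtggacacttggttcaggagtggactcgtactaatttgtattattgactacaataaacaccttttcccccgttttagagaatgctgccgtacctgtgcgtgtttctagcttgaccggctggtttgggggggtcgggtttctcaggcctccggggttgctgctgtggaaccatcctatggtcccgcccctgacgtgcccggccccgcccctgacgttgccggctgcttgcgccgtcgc
Of the 9 called members, Aldh1l2 and Pfas had no window, and Atic was the one among the remaining 7 that held the palindrome. A second motif, TGATGNAA, which resembles the element that Atf4 binds with its partners, was in 1 of the 27 (Prps1), or 3.70%, against 4.51% of all genes with a window. No match says only that these letters are not in this window.

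The genes around these pathways were taken as 4 lists, 60 genes in all, of which 56 were tested. Of the 56, 5 were called lower and 10 higher, and 17 fell and 17 rose at an adjusted p under 0.05. Among all 14330 genes tested, 16.4% were called lower and 19.3% higher, and 27.2% fell and 27.8% rose. The counts of these lists and of the proliferation list below are to be read beside those shares. Whether any list departs from them was not tested. In the list of folate, methionine and glycine genes 4 of 22 were called lower and 2 higher, with a median log2 fold change of -0.26. The largest fold among those called lower was in Slc1a4, a transporter of serine and alanine, at 37.0 and 37.9 CPM in WT and 12.1 and 12.2 CPM in Mek1/2-tKO (log2 fold change -1.62, SE 0.13, adjusted p = 3.15e-07). Also called lower were Mtr (-0.88), the methionine synthase, and Slc1a5 (-0.66), a transporter of glutamine and other neutral amino acids. These names and those that follow without an SE were picked after their values were seen. Gldc, the decarboxylase of the glycine cleavage system, was called higher at a low level, 0.411 and 0.519 CPM in WT and 1.55 and 2.98 CPM in Mek1/2-tKO (log2 fold change 2.28, SE 0.58, adjusted p = 0.00453), as was Ggh (0.72), a hydrolase that shortens folate tails.

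Among 14 tested genes for other nucleotide kinases, synthetase partners and salvage, none was called lower, 2 were called higher and the median was 0.19. Adssl1, a paralog of Adss known from muscle, was at 2.10 and 3.11 CPM in WT and 5.94 and 6.07 CPM in Mek1/2-tKO (log2 fold change 1.20, SE 0.30, adjusted p = 0.00423). Pnp, the purine nucleoside phosphorylase, was the other (0.72). Uck2, Adk and Prpsap1 fell (-0.55, -0.37 and -0.25) and Cmpk1, Guk1 and Nme6 rose (0.47, 0.24 and 0.49) without reaching the fold of 1.5. With GC and length trends taken out Guk1 (-0.03), Adk (-0.05) and Nme6 (0.25) no longer passed, and with DESeq2 Guk1 and Prpsap1 did not. Uck2, a uridine-cytidine kinase, was the most abundant of these, at 397 and 418 CPM in WT and 279 and 279 CPM in Mek1/2-tKO.

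Of 9 tested genes for nucleotide and nucleoside breakdown, 1 was called lower and 3 higher, with a median of 0.51. Ampd2, which deaminates AMP to IMP, was the 1 called lower, at 72.3 and 82.1 CPM in WT and 40.1 and 46.2 CPM in Mek1/2-tKO (log2 fold change -0.84, SE 0.11, adjusted p = 2.63e-05). Upp1, a uridine phosphorylase, was called higher at 1.85 and 0.985 CPM in WT and 5.23 and 2.77 CPM in Mek1/2-tKO (log2 fold change 1.48, SE 0.45, adjusted p = 0.0123), as were Xdh (0.79), which makes urate, and Nt5e (0.98), the ectonucleotidase CD73. Of 11 genes for the supply of deoxynucleotides none was called lower and 3 were called higher, with a median of 0.16. Dguok, the mitochondrial deoxyguanosine kinase, was at 13.3 and 14.4 CPM in WT and 32.9 and 33.6 CPM in Mek1/2-tKO (log2 fold change 1.27, SE 0.14, adjusted p = 3.76e-06), and the others were Tk2 (0.89), the mitochondrial thymidine kinase, and Samhd1 (1.14), which degrades deoxynucleotides. Another 4 genes of that list fell without reaching the fold of 1.5, namely Rrm1 (-0.49) and Rrm2 (-0.49), subunits of ribonucleotide reductase, Dck (-0.32), a deoxycytidine kinase, and Dctd (-0.41), a deaminase, of which Rrm1 no longer passed with GC and length trends taken out (-0.02).

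Of 20 proliferation genes, 14 fell, 10 of them far enough to be called, and none rose, with a median of -0.59. The other 6 did not pass the test, and in 5 genes the libraries of the genotypes overlapped. Top2a, a topoisomerase of dividing cells, had the largest fold among them, at 641 and 637 CPM in WT and 265 and 279.9 CPM in Mek1/2-tKO (log2 fold change -1.23, SE 0.07, adjusted p = 1.37e-08). The part of proliferation in the lower levels of the synthesis genes was not tested.

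**Figure D4:**
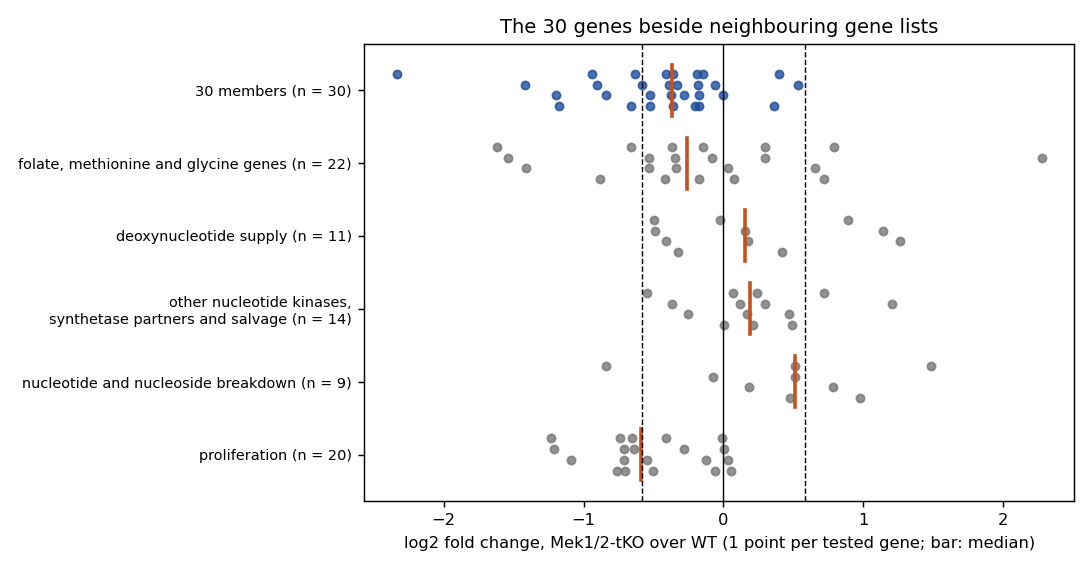
Log2 fold change, Mek1/2-tKO over WT, of the 30 members and of the neighbouring lists, with 1 point per tested gene, the median as an orange bar and a fold change of 1.5 as dashed lines. The medians of the members (-0.37), of the folate list (-0.26) and of the proliferation list (-0.59) lie below 0, and those of the deoxynucleotide (0.16), kinase and salvage (0.19) and breakdown (0.51) lists lie above it.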

How the data were processed

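The data are 4 count tables, 1 per library, from strand-specific mRNA libraries sequenced in pairs. Per the labels and the study's methods, the authors trimmed reads with Trimmomatic 0.36, mapped them to GRCm38 (the mapper is written as STRA), counted uniquely mapped reads per gene with featureCounts of Subread 1.5.1 and deposited the raw counts. The annotation release and the strand setting are not given in the sources used here. Symbols were matched to 54723 of 54752 gene IDs through GENCODE vM21. Gene positions and exon lengths are those deposited with the counts. Transcripts of GENCODE vM21 gave the GC content and the sequences searched for copies.

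Genes were kept by edgeR's filter on expression, which left 14330, scaled by TMM and fitted with edgeR 4.0.16 (R 4.3.3) by genotype in a quasi-likelihood test with Benjamini-Hochberg adjustment over all genes tested. The SE given with a log2 fold change is its absolute value divided by the square root of the F statistic of that test. The fit was tested on simulated counts with known changes. DESeq2 1.42.0 was an alternative. Ratios of members were taken per kilobase with 0.5 counts added and compared by exact permutation, two-sided. Copies were sought with BLAST+ 2.17.0, at 97% identity over 150 bases. Lowess trends on GC content and length, with a span of 0.3, were taken out in an alternative.

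The members and lists were chosen with earlier results of these data known. All members are named. From each related list and the proliferation list the called gene with the largest fold in each direction is named, and from each marker list the 2 most abundant genes. Map2k1, Map2k2, Myc and Atf4 are named in addition. Cd4, Adgre1, S100a8 and Mycn are named outside these rules. So are the genes of the related lists given without an SE, which were picked after their values were seen. A gene of the related lists is not reported by name here. The 2 libraries of a genotype differed by more than sampling noise (chi-square per gene 4.11 in WT and 10.7 in Mek1/2-tKO).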

Additional observations from a re-analysis of the deposited data

How the results depend on the processing

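Of the 30 members' fold changes under 9 alternatives and with each library left out, 370 values kept their direction and their side of the threshold for a call. Another 9 values reached it, 2 lost it and 8 turned. With GC and length trends taken out, Adsl was at 0.0555, Adss at 0.133, Gmps at 0.0563 and Dhodh at 0.0899, and 1 member was called higher. Hprt (-0.280), Impdh2 (-0.279) and Prps1 (-0.374) fell there. In that fit 21 members fell at an adjusted p under 0.05, against 24.1% of all genes, and 8 were called lower, against 12.1% of all genes. Beside the 1 member called higher, 2502 of the 14326 genes tested in that fit were called higher. Another count is of members that rose there at any fold, which was 3, and the share of all genes was not computed for it. With pseudogenes added Nme2 was at 0.45. Both of these alternatives were chosen after the data were seen. Hprt was at 0.0155 with at least 10 counts required in every library, which removed Aldh1l2, and between -0.103 and 0.0862 with 1 library left out (0.0328 without WT replicate 2). At a fold of at least 2, 1725 genes were called higher and 1040 lower, 4 members lower (Mthfd1l, Aldh1l2, Pfas and Cad), and 5 related genes higher and 2 lower. With library size alone 2388 genes were called higher and 2848 lower, 12 members lower and 8 related genes lower. The cause of these changes was not tested.

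Leaving out 1 library in turn, with the lone library assumed to vary like the other genotype, gave 2338 to 2791 genes called higher and 2119 to 2627 lower, 0 to 1 members higher (Aprt, without Mek1/2-tKO replicate 2) and 8 to 10 lower, and 8 to 13 related genes higher and 5 to 7 lower. The log2 difference of Mthfd2/Mthfd1 lay between -0.0640 and 0.0639 and that of Prps1/Prps2 between -0.0967 and 0.0832. The deviations of same-numbered libraries from the means of their genotypes correlated at -0.03. With 2 libraries per genotype this cannot show whether the replicate numbers in the labels pair the libraries. With a replicate block 2652 genes were called higher and 2300 lower, and of the members 0 and 9. Depth limits Aldh1l2 and Nme2, and 2 libraries per genotype limit every test.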

Other observations

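Per kilobase of exon, and leaving out pseudogene counts, the order of the members differed between genotypes. Shmt2 led in WT, at 249 and 255 CPM per kilobase, ahead of Hprt at 182 and 191. Psat1 (160.0 and 160.4) and Aprt (160.3 and 154) followed and overlapped. In Mek1/2-tKO the salvage gene Aprt led, at 244 and 210.0 CPM per kilobase, ahead of Hprt at 199 and 174 and of Shmt2 at 131 and 131. Psat1 stood at 87.0 and 84.2, below Phgdh, its partner in serine synthesis, at 114 and 121, whereas in WT Psat1 was above Phgdh, which had 149 and 153. With near-identical pseudogene counts added, Phgdh was at 355 and 367 CPM per kilobase and Nme2 at 474 and 484 in WT. In Mek1/2-tKO they were at 268 and 272 and at 719.8 and 589. Both then stood above Shmt2 in WT and above Aprt in Mek1/2-tKO, and Phgdh stood above Psat1 in both genotypes. Impdh2 was then at 207 and 211 in WT and at 174 and 167 in Mek1/2-tKO. It stood above Hprt in WT and above Shmt2 in Mek1/2-tKO.

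Processed pseudogenes of 3 members were counted higher than the member itself. Impdh2 had 682 and 800 counts in WT, and its pseudogene on chromosome 8 had 11736 and 11731. Gm7901, a copy of Phgdh with 98.7% identity, was at 473 and 492 CPM in WT and 351 and 349.6 CPM in Mek1/2-tKO (log2 fold change -0.46, SE 0.07, adjusted p = 0.000108), the direction of Phgdh itself. Gm7730, a copy of Nme2 with 97.8% identity, was at 388 and 402 CPM in WT and 603 and 503 CPM in Mek1/2-tKO (log2 fold change 0.49, SE 0.09, adjusted p = 0.000375), while Nme1 rose and Nme2 did not pass the test. With GC and length trends taken out Gm7730 was at -0.11 (adjusted p = 0.117), and the other Nme2 copies, Gm5566 and Gm5425, were at -0.09 and -0.33. Whether these counts came from the pseudogenes or from the parent genes was not tested. With the counts of all near-identical pseudogenes added to their members, again 9 members were called lower and none higher.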
